A study of Mus musculus with 18 samples.

Results

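Of the 23420 gene symbols counted in whole retinas of 9 mice, 8 genes of cholesterol synthesis were followed here: Hmgcs1, Idi1, Fdps, Fdft1, Sqle, Lss, Cyp51 and Insig1. They were picked out of the files by symbol, as a set that was drawn up with earlier results of these data known, and all 8 passed the filter on low counts that 15196 genes passed. All mice were wild type BALB/cJ, an albino strain, of both sexes and 8 to 10 weeks old. There were 3 mice in each of 3 groups. Naïve mice are labelled as having had neither light exposure nor treatment. Vehicle-treated mice received daily intraperitoneal DMSO from 1 day before they were exposed to white light of 15000 lux for 1 h, and TD139-treated mice received TD139, a small-molecule inhibitor of the sugar-binding protein galectin-3, at 15 mg/kg in DMSO on the same schedule. The retinas of the light-exposed groups were taken 4 days after light. Since by these labels the naïve mice lacked both the light and the injections, the effects of light and of DMSO cannot be told apart in any comparison with them.

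Cholesterol is built from acetyl-CoA in the endoplasmic reticulum, first through the mevalonate steps to isoprenoids, then through squalene to lanosterol, and finally by trimming lanosterol to cholesterol. Transcription of these enzymes is raised together by SREBP-2, which the retention protein INSIG1 and its partner SCAP hold in the endoplasmic reticulum while sterol is plentiful, so that low sterol raises the whole pathway. The retina makes part of its own cholesterol, and Müller glia are held to be a main site, whereas the photoreceptor outer segments also take up sterol from outside. Hmgcs1 (HMG-CoA synthase) acts at the start of the mevalonate steps. Idi1 (an isomerase) and Fdps (farnesyl diphosphate synthase) make the isoprenoid units. Fdft1 (squalene synthase), Sqle (squalene epoxidase), Lss (lanosterol synthase) and Cyp51 (lanosterol demethylase) are the sterol-committed steps. Insig1 is no enzyme but the retention protein, and its own gene is a target of SREBP-2.

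Promoter windows from RefSeq (GRCm38.p6), 250 bases before to 50 bases after the start of the gene, were held for 5 of the 8 genes, namely Hmgcs1, Idi1, Lss, Cyp51 and Insig1, and were searched on both strands for letters that SREBP and its usual partners can bind. A sterol response element, searched as TCACNCCAC, was found in 1 of the 5, Hmgcs1, at 137 bases before the start (offset -137), and 1.24% of the 32851 promoter windows in the table held it. Only these letters were searched, so a window without them may still hold the element in another form. The CCAAT box, searched as CCAAT, was found in 5 of 5, against 37.4% of all windows. The GC box, searched as GGGCGG, was also found in 5 of 5, against 35.7% of all windows. The E-box, searched as CACGTG, was found in Insig1 alone, against 7.15% of all windows. Among 12 of the other enzymes of the pathway with an entry, 0 held the letters searched for the sterol response element and 11 a CCAAT box. The letters of the 4 motifs do not overlap in these 5 windows. The Hmgcs1 window (chr13:119690101-119690400, plus strand) is printed because it held the sterol response element, which stands in capitals, and the Lss window (chr10:76531355-76531654, plus strand) because Lss was the gene that differed most clearly between groups.
Hmgcs1: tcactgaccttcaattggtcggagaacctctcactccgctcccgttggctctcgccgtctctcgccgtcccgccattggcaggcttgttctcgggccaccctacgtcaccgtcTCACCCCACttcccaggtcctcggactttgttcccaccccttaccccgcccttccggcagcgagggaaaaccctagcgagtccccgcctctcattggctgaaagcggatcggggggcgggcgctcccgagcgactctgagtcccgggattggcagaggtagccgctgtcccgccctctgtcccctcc
Lss: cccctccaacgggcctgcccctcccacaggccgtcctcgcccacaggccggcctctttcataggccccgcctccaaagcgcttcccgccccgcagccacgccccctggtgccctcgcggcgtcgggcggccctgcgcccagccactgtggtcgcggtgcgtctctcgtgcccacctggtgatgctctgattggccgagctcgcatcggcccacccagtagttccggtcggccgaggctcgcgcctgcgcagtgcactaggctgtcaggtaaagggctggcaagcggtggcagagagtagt
In the Lss window the CCAAT letters lay on the minus strand at -62, and the GC box letters lay at -127 and -166. Matches of this kind describe the letters alone.

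**Figure D1:**
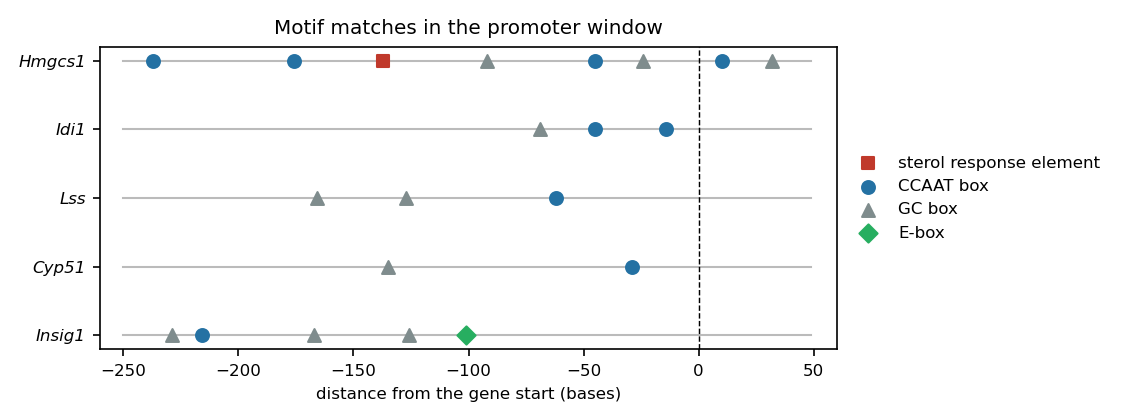
Positions of the 4 motifs in the promoter windows of the 5 genes with an entry; the horizontal axis is the distance from the gene start in bases, and each symbol is 1 match on either strand. The sterol response element appears in Hmgcs1 at -137, and a CCAAT box and a GC box appear in 5 of 5 windows.

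The files held 26171887 to 30201517 reads on genes per mouse. The 8 rod photoreceptor markers summed to 42770 CPM (counts scaled to library size with TMM factors) or more in each. The vehicle-treated retina 2 stood apart, with 6089 CPM summed over 5 lens markers, where the other 8 retinas had 0.421 to 240 CPM. It also had the highest sum over 6 markers of the retinal pigment epithelium, 443 CPM, against 107 to 265 CPM in the others. TD139-treated retina 1 had 142 CPM over 9 markers of microglia and macrophages, where both other retinas of its group had 30.8 and 34 CPM.

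Levels of different genes were compared per transcript length, in TPM, in which the count is divided by the length of the longest coding transcript and scaled to a common total per mouse. In naïve retinas the order ran from Fdps at 120 ± 21.4 TPM (SD, n = 3) over Hmgcs1 at 87.9 ± 11.4, Fdft1 at 70.5 ± 6.19, Sqle at 56.4 ± 4.93, Insig1 at 48.5 ± 4.28 and Cyp51 at 37.2 ± 3.07 to Lss at 14.1 ± 3.06 and Idi1 at 1.25 ± 0.492 TPM. The ranges of the naïve mice overlapped between Fdps (97.5 to 140 TPM) and Hmgcs1 (76.3 to 99 TPM). Fdft1, at 63.3 to 74.6 TPM, lay under every naïve value of Hmgcs1, and Sqle, at 53.5 to 62.1 TPM, under every one of Fdft1. Insig1, at 44.8 to 53.2 TPM, Cyp51, at 33.9 to 39.9 TPM, and Lss, at 10.9 to 17 TPM, each lay under the gene before. Fdps thus ranked at the 88.7th percentile of the tested genes with a length, Lss at the 41.8th and Idi1 at the 11.8th. Idi1 was counted with only 22 to 69 reads per mouse, so that counting error alone is large for it, and its values are less reliable than those of the other 7 genes, which had at least 508 counts in every mouse.

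**Figure D2:**
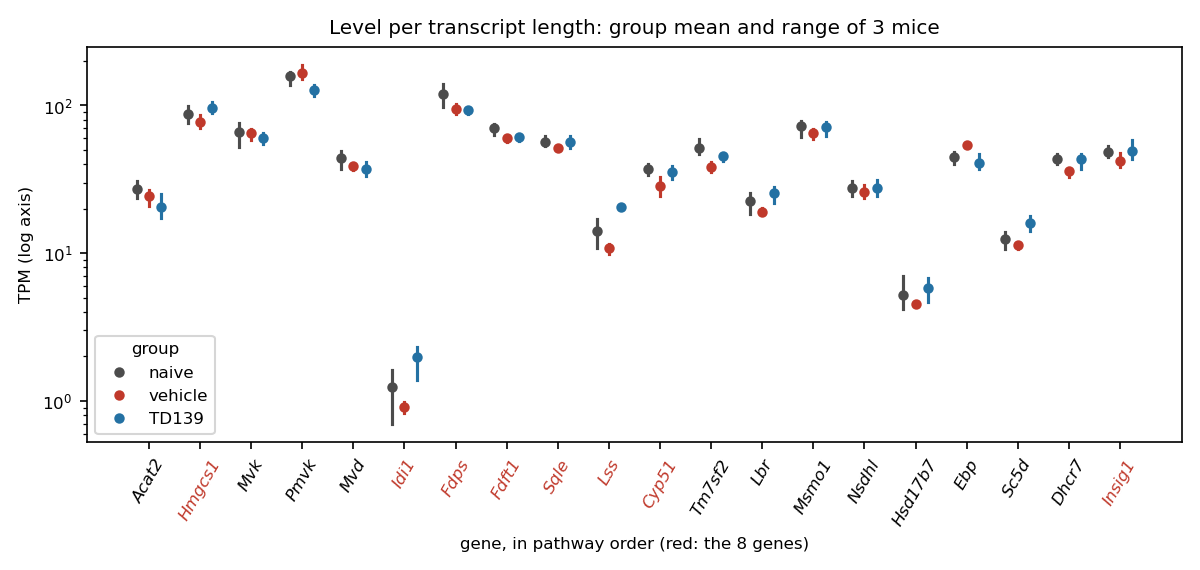
Level per transcript length (TPM, log axis) of the 8 genes (red names) and 12 other enzymes of the pathway in pathway order; points are group means, bars the range of the 3 mice. Fdps was the highest of the 8 genes at 120 TPM in naïve mice and Idi1 the lowest at 1.25 TPM.

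Vehicle-treated mice were first set against naïve mice, which asks what light and the injections did to these transcripts. The point estimate of each of the 8 genes was below that of naïve mice, and none of the 8 passed the test by edgeR's quasi-likelihood test with Benjamini-Hochberg adjustment, where 4.91% of all tested genes were higher and 2.89% lower. The log2 fold changes ranged from -0.47 to -0.16, with a median of -0.33, and 50.2% of all tested genes lay below 0. At an unadjusted p under 0.05, 4 of the 8 were lower (Lss, Cyp51, Fdps and Fdft1), against 13.2% of all genes. DESeq2 called 2 lower (Cyp51 and Lss), against 7.04% of all genes, and limma voom with quality weights called 5 lower, against 10.2%.

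Lss, which closes the sterol rings (chromosome 10, 76531588 to 76557138, plus strand, GRCm38), had 20.4, 25.3 and 28.5 CPM in the naïve mice and 19.4, 17.8 and 18.5 CPM in the vehicle-treated mice. It was the only 1 of the 8 genes whose vehicle-treated mice all lay below the naïve mice, a separation that 16.3% of all tested genes showed in this direction. Its log2 fold change was -0.42 ± 0.13 (SE), with an adjusted p of 0.067. Cyp51, which removes the first methyl group of lanosterol (chromosome 5, 4081145 to 4104746, minus strand), had 59.7, 59 and 48 CPM in the naïve mice and 39, 50 and 34.9 CPM in the vehicle-treated mice, which overlap in the lens-marked retina 2. Its log2 fold change was -0.43 ± 0.14, with an adjusted p of 0.0832. Without vehicle-treated retina 2 it was -0.60, with an adjusted p of 0.0336, and Cyp51 then passed, where 2.30% of all genes were lower.

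Fdps, at the branch towards prenyl groups (chromosome 3, 89093588 to 89101959, minus strand), varied most among the abundant genes of the naïve mice, with 77.8, 63 and 48.5 CPM. The vehicle-treated mice had 46.2, 54.8 and 44.3 CPM, and the log2 fold change was -0.39 ± 0.15 with an adjusted p of 0.13. It was -0.20 (adjusted p 0.364) without naïve mouse 1, the highest of its group, and -0.54 (adjusted p 0.0588) without naïve mouse 3. Fdft1, the first enzyme committed to sterol (chromosome 14, 63145150 to 63179578, minus strand), had 111, 102 and 84.3 CPM in the naïve and 80.9, 89.3 and 76.2 CPM in the vehicle-treated mice. Its log2 fold change was -0.27 ± 0.11, with an adjusted p of 0.137. In both genes naïve mouse 3 lay within the range of the vehicle-treated mice. The 3′ ends of Fdft1 and Ctsb (a lysosomal protease) overlap by 774 bases on opposite strands, and Ctsb was higher in the vehicle group than in the naïve group, with a log2 fold change of 0.92 (adjusted p 0.0134). The setting for strand in the counting is not given in the sources used here. The counts hold a separate class of ambiguous reads, 0.303 to 0.471% per mouse, which was left out here. Whether reads from this overlap went into that class or to either gene is not known. Cyp51 overlaps Akap9 by 166 bases in the same way.

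Hmgcs1 (chromosome 13, 119690379 to 119708260, plus strand) had 106, 129 and 110 CPM in the naïve and 107, 102 and 88.1 CPM in the vehicle-treated mice, with a log2 fold change of -0.22 (95% confidence interval -0.46 to 0.01). Sqle (chromosome 15, 59315077 to 59331192, plus strand) had 59.2, 64.3 and 53.2 CPM against 52.2, 55.9 and 49.9 CPM, with a log2 fold change of -0.16 (-0.39 to 0.06). Insig1 (chromosome 5, 28071363 to 28078662, plus strand) had 51.4, 53.9 and 43.5 CPM against 45.7, 43.6 and 37.5 CPM, with a log2 fold change of -0.24 (-0.52 to 0.05). The groups overlapped in all 3 genes. Without naïve mouse 2, which had the highest value of its group in each of them, Hmgcs1 moved to -0.13 and Sqle to -0.09. Idi1 (chromosome 13, 8885501 to 8892451, plus strand) had 0.844, 1.62 and 1.78 CPM against 0.896, 1.16 and 1.01 CPM, and its interval, -1.25 to 0.31, was too wide to show a change of the size seen in the other genes. Its log2 fold change, -0.47, moved to -0.73 without naïve mouse 1 and to -0.26 without naïve mouse 3.

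Markers of other cells also moved in these mice. Of 8 rod markers 6 were called lower in vehicle-treated mice (summed level 42770 to 59600 CPM, against 73212 to 84252 CPM in naïve mice), and 4 of 7 markers of Müller glia and 4 of 9 of microglia and macrophages were called higher (the latter 237 to 479 against 44.2 to 51.4 CPM). Without vehicle-treated retina 2 these counts were 7, 4 and 5, and without TD139-treated retina 1, which shares in the estimate of the spread, they were 7, 4 and 9. In either direction 7.80% of all tested genes were called with all mice, 6.35% without vehicle-treated retina 2 and 12.8% without TD139-treated retina 1. Of 5 markers of gliosis 2 were called higher (738 to 1265 against 239 to 338 CPM), and 3 without TD139-treated retina 1. Their part in the values of the sterol genes was not tested. In bulk retina, fewer cells of a type and less RNA per cell cannot be told apart.

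**Figure D3:**
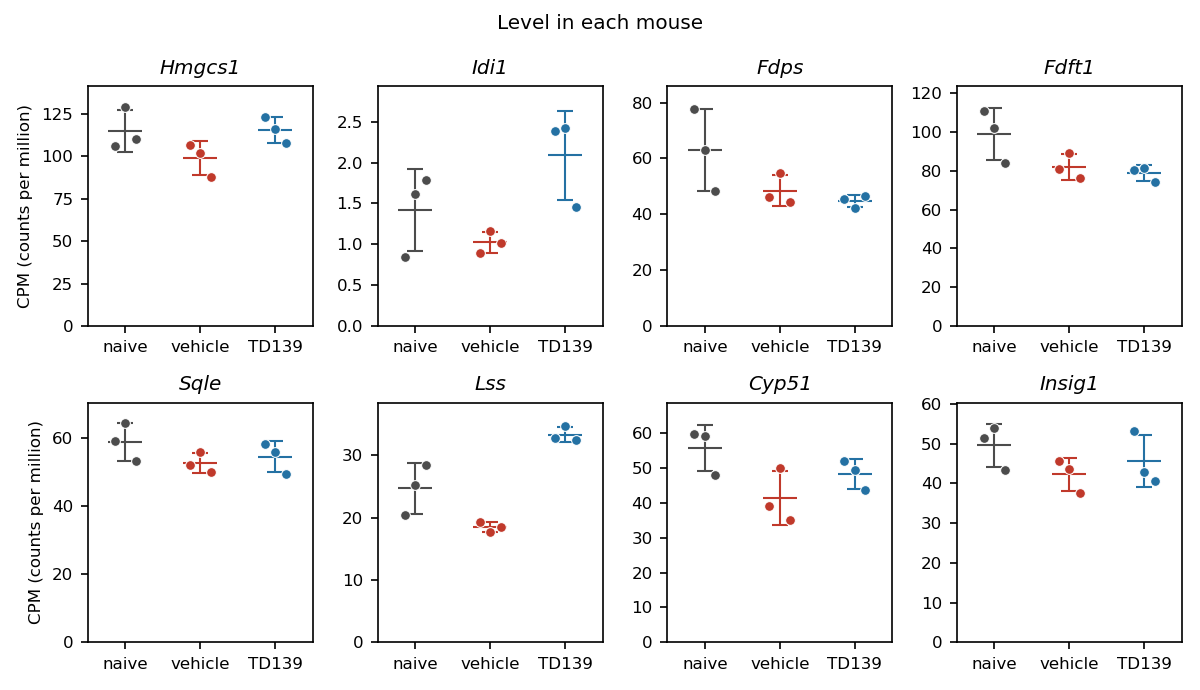
CPM of the 8 genes in each mouse; points are mice, the horizontal bar is the mean and the whiskers are the SD of 3 mice, and each vertical axis starts at 0. For Lss the TD139-treated mice (32.5 to 34.8 CPM) sit above both other groups, and for Fdps and Fdft1 they sit below the naïve mice.

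The comparison of TD139-treated with vehicle-treated mice concerns the inhibitor, as both groups had light and DMSO. Of the 8 genes, 2 were called higher (Lss and Idi1) and 0 lower, where 17.2% of all tested genes were called higher and 16.2% lower. DESeq2 called the same 2 genes higher, where it called 20.0% of all genes higher, and limma voom 1, Lss, where it called 23.4%. In 3 of the 8 (Lss, Idi1 and Hmgcs1) every TD139-treated mouse lay above every vehicle-treated mouse, and 26.4% of all tested genes did so. The median log2 fold change of the 8 was 0.16, beside -0.02 over all tested genes.

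Lss had 32.8, 34.8 and 32.5 CPM in the TD139-treated mice, against 17.8 to 19.4 CPM in the vehicle-treated mice, and the spread within either group was small (SD 1.25 and 0.766 CPM). The level was 1.79-fold higher, with a log2 fold change of 0.84 ± 0.13 (SE) and an adjusted p of 0.005. The call held in each of the 21 alternatives tried, with log2 fold changes from 0.75 to 0.90 and adjusted p-values from 1.95e-07 to 0.0346. The antisense gene 4930483K19Rik, which overlaps Lss by 11268 bases, had 0 to 4 counts per mouse.

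Idi1 had 2.38, 2.42 and 1.46 CPM (64, 69 and 37 counts) in the TD139-treated mice, against 0.896, 1.16 and 1.01 CPM (25, 33 and 30 counts) in the vehicle-treated mice. Its log2 fold change was 1.02 ± 0.35, with an adjusted p of 0.0445, which sits just inside the threshold. The direction held in each of 20 alternatives, with log2 fold changes from 0.74 to 1.41, but the call held in only 6 of them. It was lost without TD139-treated mouse 1 (0.92, adjusted p 0.093), without vehicle-treated retina 2 (1.13, adjusted p 0.0679) and in flow cell run 2 alone (0.74, adjusted p 0.162).

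**Figure D4:**
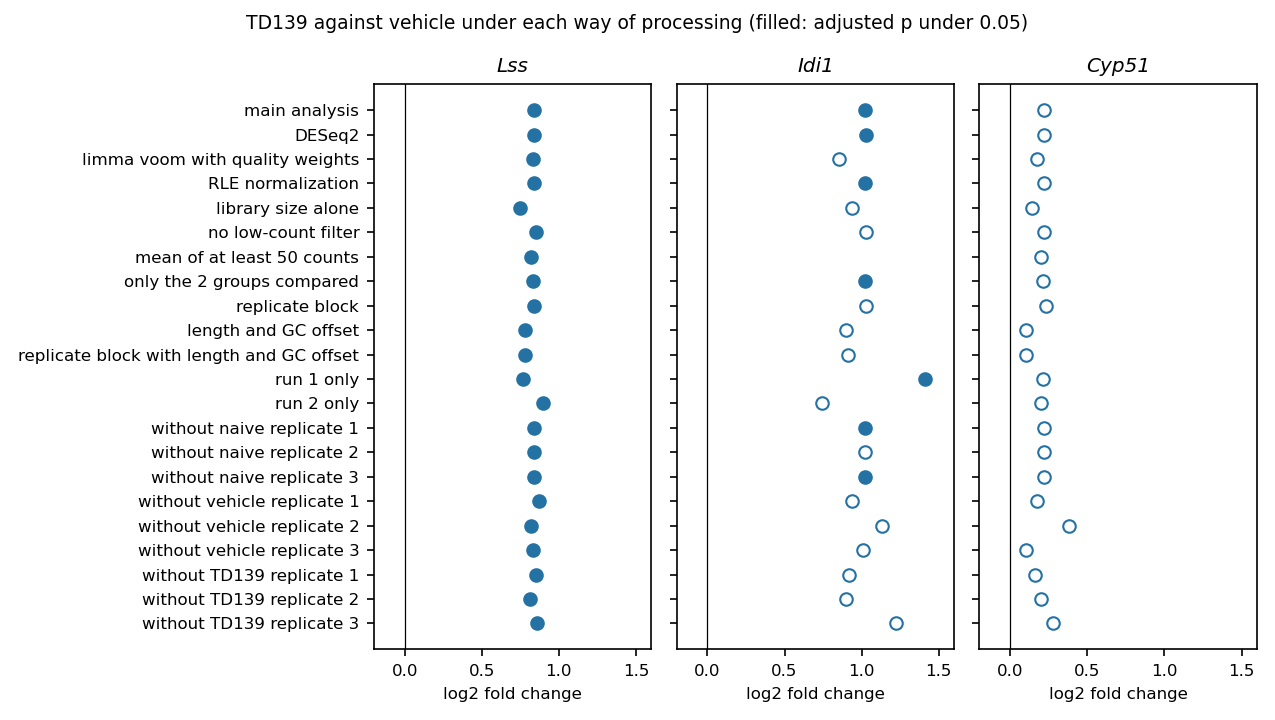
Log2 fold change of Lss, Idi1 and Cyp51, TD139-treated against vehicle-treated mice, in the main analysis and each alternative; filled points have an adjusted p under 0.05. Lss is filled throughout, Idi1 in the main analysis and 6 alternatives, Cyp51 in none.

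Hmgcs1 had 123, 116 and 108 CPM in the TD139-treated mice, all above the highest vehicle-treated mouse at 107 CPM, and its log2 fold change of 0.22 (95% confidence interval -0.01 to 0.45) did not pass, with an adjusted p of 0.128. Without vehicle-treated mouse 3, the lowest of its group, it was 0.14. Cyp51 had 51.9, 49.3 and 43.5 CPM, with a log2 fold change of 0.22 (-0.10 to 0.53) and an adjusted p of 0.257. It was 0.38 (adjusted p 0.0586) without the lens-marked vehicle-treated retina 2 and 0.10 (adjusted p 0.636) without vehicle-treated mouse 3. Akap9, whose end overlaps that of Cyp51, was higher with TD139 than with vehicle (0.84, adjusted p 0.005). Insig1 had 53.1, 43 and 40.7 CPM and a log2 fold change of 0.10 (-0.18 to 0.39), and Sqle 58.2, 55.8 and 49.4 CPM and 0.04 (-0.19 to 0.27). Fdps had 45.3, 42.4 and 46.4 CPM with a log2 fold change of -0.12 (-0.46 to 0.21), and Fdft1 80.5, 81.6 and 74 CPM with -0.07 (-0.31 to 0.18). Without vehicle-treated retina 2, Fdps moved to -0.02 and Fdft1 to 0.00. For Insig1, Sqle, Fdps and Fdft1 a rise of the size of that of Lss lies outside these intervals. Ctsb, whose end overlaps that of Fdft1, was lower with TD139 than with vehicle (-0.86, adjusted p 0.00568). Of the rod markers 4 of 8 were called higher in this comparison (summed level 60988 to 76509 CPM in TD139-treated mice), and 7 of 9 markers of microglia and macrophages were called lower (30.8 to 142 CPM). All 7 markers of Müller glia lay below 0 (median log2 fold change -0.22) and 2 of them were called lower, as were 3 of 5 markers of gliosis. All 5 tested markers of the retinal pigment epithelium lay below 0 (median -0.83). Of these 2 were called lower, and 0 without vehicle-treated retina 2. Of 6 markers of bipolar cells 3 were called higher and 2 lower. Without TD139-treated retina 1, 9 of 9 markers of microglia and macrophages were lower and 7 of 8 rod markers higher, and without vehicle-treated retina 2 these were 6 and 7. The share of all tested genes called in either direction was 33.4% with all mice, and 38.4% and 24.5% in these 2 fits. The part of these cells in the values of the sterol genes was not tested.

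The comparison of TD139-treated with naïve mice asks what remained of the difference from the unexposed retina. None of the 8 genes passed the test with edgeR, where 2.72% of all tested genes were called higher and 2.38% lower, and 3 (Fdps, Fdft1 and Lss) had an unadjusted p under 0.05, against 29.6% of all genes. DESeq2 called these 3, against 17.1% of all genes in either direction, and limma voom called 6, against 36.0%. The TD139-treated mice lay below every naïve mouse in 2 of the 8, Fdps and Fdft1, as did 15.6% of all tested genes, and above every naïve mouse in 1, Lss, as did 16.3%. Fdps had a log2 fold change of -0.51 ± 0.15 (adjusted p 0.0655), Fdft1 of -0.34 ± 0.11 (adjusted p 0.0764) and Lss of 0.42 ± 0.13 (adjusted p 0.0665). Without naïve mouse 3, which had the lowest Fdps and Fdft1 and the highest Lss of its group, all 3 genes passed (Fdps -0.66, adjusted p 0.0175; Fdft1 -0.44, adjusted p 0.0217; Lss 0.55, adjusted p 0.0224), but so did more of all tested genes, 9.87% higher and 7.49% lower. Without naïve mouse 1, Fdps moved to -0.32 (adjusted p 0.248). The log2 fold changes of Hmgcs1 (-0.01), Sqle (-0.12), Insig1 (-0.13) and Cyp51 (-0.21) were small, and that of Idi1, 0.55, had an interval from -0.21 to 1.31 and moved to 0.29 without naïve mouse 1. None of the 8 reached a log2 fold change of 2 in either direction in any of the 3 comparisons.

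Across the 3 groups, the mean of the vehicle-treated mice was the lowest for 6 of the 8 genes, and that of the TD139-treated mice for the other two, Fdps and Fdft1. The TD139-treated mice had the highest mean for Idi1 and Lss. For Hmgcs1 the TD139-treated and naïve means were both 115 CPM, and the sign of their difference turned with the measure. The naïve mice had the highest mean for Sqle, Insig1 and Cyp51 as well as for Fdps and Fdft1. For 6 of the genes the highest single value was that of naïve mouse 1 or 2, and for 2 (Idi1 and Lss) that of TD139-treated mouse 2. Summed over the 8 genes, the level was 467 ± 43.2 CPM (SD, n = 3) in naïve, 385 ± 32.3 CPM in vehicle-treated and 423 ± 26 CPM in TD139-treated mice. Both comparisons with vehicle-treated mice share those 3 mice, so a low value there gives a difference of opposite sign in each.

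The other 14 enzymes of the pathway, all of them measured, showed calls in both directions. In vehicle-treated against naïve mice 2 of 14 were lower and 0 higher, beside 2.89% and 4.91% of all tested genes. Among them, Tm7sf2, a sterol reductase, had a log2 fold change of -0.48 ± 0.12 (adjusted p 0.0398). The median of the 14 was -0.20. With TD139, 2 of 14 were higher and 2 lower than in vehicle-treated mice, beside 17.2% and 16.2% of all tested genes. Among the higher ones was Sc5d, the lathosterol desaturase (0.41 ± 0.13, adjusted p 0.0342). The lower ones were Pmvk, the phosphomevalonate kinase (-0.48 ± 0.13, adjusted p 0.017), and Ebp, a sterol isomerase (-0.50 ± 0.13, adjusted p 0.015). Between TD139-treated and naïve mice 0 of 14 passed in edgeR, 4 had an unadjusted p under 0.05 (29.6% of all genes did), DESeq2 called 2 (17.1% of all genes) and limma voom 9 (36.0% of all genes).

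**Figure D5:**
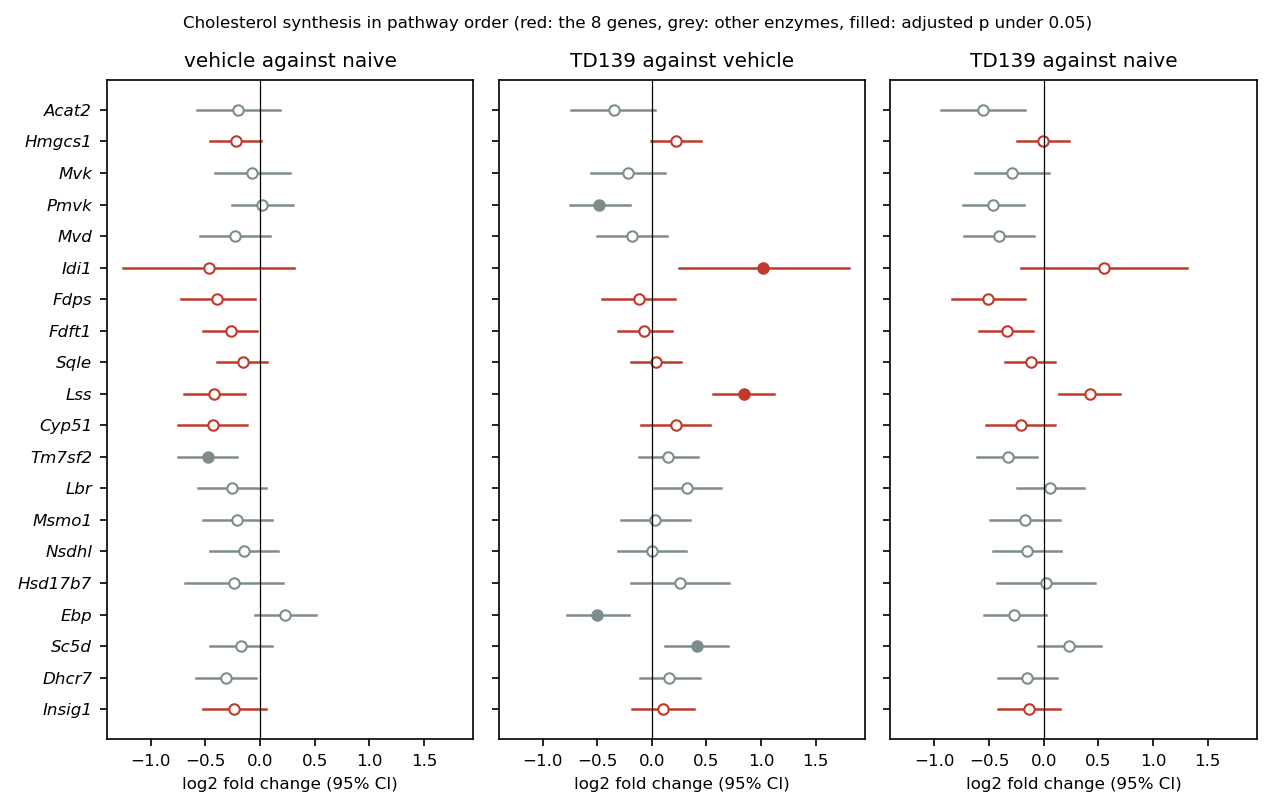
Log2 fold change with 95% confidence interval of the 8 genes (red) and 12 other enzymes (grey) in pathway order for the 3 comparisons; filled points have an adjusted p under 0.05. In the middle panel Lss (0.84), Idi1 (1.02) and Sc5d (0.41) are filled to the right of 0, Pmvk (-0.48) and Ebp (-0.50) to the left.

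The fold changes with TD139 followed transcript length and GC content, which were not separated here. Over all tested genes with a length, Spearman's correlation between length and log2 fold change was 0.50 in TD139-treated against vehicle-treated mice, 0.61 against naïve mice and -0.10 in vehicle-treated against naïve mice. With GC content the correlation was -0.38, -0.42 and 0.12 in the same order. Over the 22 pathway genes the correlation for TD139 against vehicle was 0.76 with length and -0.60 with GC content, as a description across genes that share the same libraries. Of the genes called higher, Sc5d (4787) and Lss (4667 bases) had the longest transcripts of the 22, whereas Idi1 (3027 bases) was the 13th from the shortest, below Hmgcs1, Fdft1 and Cyp51, which were not called. Those called lower had short ones (Pmvk 1194 and Ebp 1743 bases). The share of reads outside genes was also highest with TD139, at 21.3, 22.8 and 22.6%, against 19.4, 16.5 and 18.5% in vehicle-treated and 19.1 to 19.9% in naïve mice, and its part in these values was not tested. With an offset for length and GC content fitted in each mouse, which left a correlation of -0.15 over the 22 genes, Lss stayed called in TD139-treated against vehicle-treated mice (0.78, adjusted p 0.00724), whereas Idi1 did not pass (0.90, adjusted p 0.0743). Fdps, with a transcript of 1382 bases, turned from -0.12 to 0.41 and was called higher (adjusted p 0.0286). Of the members that did not pass with or without the offset, Hmgcs1 moved from 0.22 to 0.08 (adjusted p 0.572), Cyp51 from 0.22 to 0.10 (adjusted p 0.668), Sqle from 0.04 to 0.16, Insig1 from 0.10 to 0.21 and Fdft1 from -0.07 to -0.03. Of the 22 genes 6 were then higher (Lss, Fdps, Mvd, Tm7sf2 and Dhcr7 among them) and 0 lower, where 13.7% of all genes were higher, and Pmvk, Ebp and Sc5d no longer passed. Pmvk turned from -0.48 to 0.12 (adjusted p 0.375), Ebp moved from -0.50 to -0.14 and Sc5d from 0.41 to 0.10. With the same offset 4 of the 8 genes, Fdps (-0.57), Cyp51 (-0.48), Lss (-0.47) and Fdft1 (-0.36), were called lower in the vehicle group than in the naïve group, where 13.6% of all genes were lower. In TD139-treated against naïve mice, 0 of the 22 pathway genes and 0 of 15062 genes in all were called by edgeR with the offset, and 5 and 2082 of them had an unadjusted p under 0.05. Fdps moved there from -0.51 to -0.16 (adjusted p 0.572) and Lss from 0.42 to 0.30 (adjusted p 0.233). With the offset the median of all genes was -0.10 for vehicle against naïve, 0.07 for TD139 against vehicle and -0.01 for TD139 against naïve. The source of the trend with length and GC content was not tested.

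Around the pathway, calls went in both directions, and they are to be read beside the shares over all tested genes (4.91% higher and 2.89% lower for vehicle against naïve, 17.2% higher and 16.2% lower for TD139 against vehicle). Of 9 genes of the prenyl and dolichol branch, which draws on the product of Fdps, 2 were higher with TD139 than with vehicle, Ggps1 (0.52, adjusted p 0.0191) and Pggt1b (1.09, adjusted p 0.0185), and the 3 most abundant, Dhdds (-0.12), Fnta (-0.28) and Fntb (0.11), did not pass. Of 10 genes of SREBP control, Srebf1, which encodes the SREBP-1 isoforms, was lower with TD139 than with vehicle (-0.44, adjusted p 0.0307). Rnf145, a ubiquitin ligase of this group, did not pass (0.00 with TD139 against vehicle). Srebf2, the gene of SREBP-2 itself, chosen here after its values were seen, had log2 fold changes of 0.05 in vehicle-treated against naïve mice and 0.12 for TD139 against vehicle, and passed in neither.

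Of 12 genes of sterol uptake and trafficking, the receptor Vldlr (0.83, adjusted p 0.00782), the lysosomal exporter Npc1 (0.32, adjusted p 0.0273) and the sterol carrier Stard4 (0.69, adjusted p 0.0343) were higher with TD139 than with vehicle, and Npc2 was lower (-0.86, adjusted p 0.00568). Npc2 (0.59, adjusted p 0.0371) and Lrp1 (0.42, adjusted p 0.0279) were higher in the vehicle group than in the naïve group, and Lrp1 also in TD139-treated against naïve mice (0.49, adjusted p 0.0406). Scarb1 did not pass in any comparison (-0.24, 0.25 and 0.01). Of 12 fatty acid genes under SREBP-1, Acly (0.45), Acaca (0.35) and Elovl6 (0.50) were higher and Mid1ip1 (-0.29) lower with TD139 than with vehicle, while Scd2 (0.38), Elovl5 (0.58) and Fads2 (0.55) were higher in the vehicle group than in the naïve group. Fasn did not pass (0.21 and 0.00). Of 11 genes of sterol export and oxysterols, the lipoprotein gene Apoe, also a marker of Müller glia, was 2.68-fold higher in the vehicle group than in the naïve group (1.42 ± 0.36, adjusted p 0.0486). Apoe (-1.32) and Cyp27a1 (-0.81) were lower, and the exporters Abcg1 (0.37) and Abcg4 (0.64) and the ligase Mylip (0.34) higher, with TD139 than with vehicle. Between TD139-treated and naïve mice Lrp1 alone passed among these 5 groups of genes.

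Most calls on these 5 groups and on the other 14 enzymes did not hold for every choice of a mouse to leave out. This check was added for them, and for the marker counts above, after their values were seen. Of the 20 genes called for TD139 against vehicle, 6 stayed called whichever mouse was left out, Vldlr, Npc2, Acly, Abcg4 and Cyp27a1 among them. Without vehicle-treated mouse 3 there were 9, without TD139-treated mouse 2 there were 6 and without TD139-treated mouse 3 there were 8. The share of all tested genes called fell as well, from 33.4% to 16.4, 10.5 and 12.4% in these 3 fits. Apoe had 1281 CPM in TD139-treated retina 1, against 506 and 514 CPM in the other two of its group. It went from -1.32 to -1.92 (adjusted p 0.000145) without that retina, and the call was lost without vehicle-treated mouse 3 (-1.26, adjusted p 0.0766) and without TD139-treated mouse 2 (-1.10, adjusted p 0.0813) or 3 (-1.10, adjusted p 0.0724). With the length and GC offset 5 of the 20 were called, where 21.4% of all tested genes were called, against 33.4% without it. Among the genes not called with the offset were Vldlr (0.35, adjusted p 0.0564), Npc1 (0.15), Stard4 (0.40) and Cyp27a1 (-0.42, adjusted p 0.0626). Acaca and Mid1ip1 turned sign as Pmvk did. Each of the 9 genes called for vehicle against naïve lost its call when naïve mouse 1, for one, was left out, where 0.591% of all tested genes were called, against 7.80% with all mice and 20.0% with the offset, which called all 9. The call on Lrp1 between TD139-treated and naïve mice was lost in 5 of the 9 fits that left out a mouse, and with the offset, and in each of these edgeR called 0.00% of all tested genes. Its log2 fold change, 0.49 with all mice, was 0.46 to 0.55 with a mouse left out. With the offset it fell to 0.09 (adjusted p 0.781).

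To see how the 8 genes moved together over single mice, each was scaled to a mean of 0 and an SD of 1 over the 9 mice, and their average was scaled again to an SD of 1. In these units the profile was highest in naïve mouse 2 (1.51) and lowest in vehicle-treated mouse 3 (-1.75), and within each group it spread widely, from 0.01 to 1.51 in naïve, from -1.75 to -0.29 in vehicle-treated and from -0.59 to 0.83 in TD139-treated mice. Cyp51 lay closest to this profile (root mean square difference 0.297), followed by Sqle (0.4) and Insig1 (0.453), and Idi1 (1) and Lss (1.04) lay farthest. Each of the 8 genes is itself part of this average, which brings it closer. Their differences are therefore not comparable with those of other genes. Among 13086 other genes, Vps8 (0.339), Recql5 (0.357), Radil (0.398), A930024E05Rik (0.401) and Thap6 (0.413) had the most similar pattern over the 9 mice.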

How the data were processed

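Whole-retina RNA of 9 mice was read on 2 flow cells after stranded poly(A) library preparation. The authors deposited unscaled whole-number counts of reads per gene for each mouse and flow cell, made with BaseSpace RNA Express. The study's statement on its data speaks of DESeq2-normalized counts, but the values held are whole numbers whose totals differ between mice, and they were used as raw counts; the build is mm10 in the submitters' processing notes, and the annotation and strand setting are not given in the sources used here. Both flow cells were summed per mouse (n = 3 a group). Reads outside genes (16.5 to 22.8%) and ambiguous reads (0.303 to 0.471%) were left out. The main test was edgeR 4.0.16 in R 4.3.3 (filterByExpr, TMM, robust quasi-likelihood F test, all 9 mice in 1 fit), with Benjamini-Hochberg adjustment over 15196 genes and a threshold of 0.05. The SE is the log2 fold change divided by the square root of F. Alternatives were DESeq2 1.42.0, limma 3.58.1 (voom with quality weights), other scalings and filters, only the 2 groups compared, a replicate block, an offset for transcript length and GC content (spline, 4 degrees of freedom), single flow cells, and each mouse left out. Lengths and positions came from GENCODE M21 on GRCm38, joined to 23046 of 23420 symbols (98.4%). Msmo1 is listed as Sc4mol. Some of the fits were run on simulated counts with known changes, a fixed spread and no trend with length or GC content. That run checks the code and does not show how well the fits suit these data.

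The members, gene lists and tests were chosen with earlier results of these data known. Named were all 8 genes, the 3 genes of each other list with the highest mean count and its called genes, and the 5 genes most similar in pattern (mean count 50 or more). Some genes that meet this rule are not reported here.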

Additional observations from a re-analysis of the deposited data

How the results depend on the processing

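The number of the 8 genes called in vehicle-treated against naïve mice was 0, and became 2 with DESeq2, 5 with limma voom, 4 with the length and GC offset, 5 with the replicate block and that offset together, 1 in run 2 only, and 0 to 1 when 1 mouse was left out. The number in TD139-treated against vehicle-treated mice was 2, and became 1 with limma voom, with library size alone, without a low-count filter, with a mean of at least 50 counts (which removed Idi1), with the replicate block and in run 2 only, and 1 to 2 when 1 mouse was left out. In TD139-treated against naïve mice it was 0, and became 3 with DESeq2, 6 with limma voom and 0 to 3 with 1 mouse left out. Of the 14 other enzymes, the 2 called in vehicle-treated against naïve mice became 3 with limma voom, 4 with the length and GC offset, 5 with that offset and the replicate block, 1 with library size alone, with only the 2 groups compared, with the replicate block and in run 2 only, and 0 to 2 with 1 mouse left out. The 4 called in TD139-treated against vehicle-treated mice became 6 with limma voom and 1 to 6 with 1 mouse left out (1 when TD139-treated mouse 2 or 3 was absent, 2 when vehicle-treated mouse 3 was), and the 0 against naïve mice became 2 with DESeq2, 9 with limma voom and 0 to 5 with 1 mouse left out (5 without naïve mouse 3). The share of all tested genes called moved too, so a shift in these counts is to be read beside it. In vehicle-treated against naïve mice it was 7.80%, and 22.5% with limma voom, 20.0% with the length and GC offset, 18.1% with that offset and the replicate block, and 0.00647 to 12.8% with 1 mouse left out, while DESeq2 called 7.04% of all genes lower, against 2.89% by edgeR. In TD139-treated against vehicle-treated mice it was 33.4%, 46.2% with limma voom, and 10.5 to 38.4% with 1 mouse left out. With library size alone it was 32.8%, with the replicate block 31.4% and in run 2 only 32.4%. Without a low-count filter it was 25.1%, and with a mean of at least 50 counts 37.5%. In TD139-treated against naïve mice it was 5.10%, 17.1% with DESeq2, 36.0% with limma voom, and 0.00 to 17.4% with 1 mouse left out, the highest without naïve mouse 3. The cause of these shifts was not tested, apart from the filter.

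Single fold changes turned sign in 16 of 501 alternatives, most of them near 0. In TD139-treated against vehicle-treated mice, Sqle went to -0.02 with limma voom, to -0.04 with library size alone and to between -0.01 (without TD139-treated mouse 1) and 0.11 with 1 mouse left out. Insig1 went to -0.01 with limma voom and to between -0.02 (without that mouse) and 0.18 with 1 mouse left out. Fdft1 ranged from -0.12 to 0.00 with 1 mouse left out (0.00 without vehicle-treated mouse 2), and Fdps went to 0.41 with the length and GC offset, with or without the replicate block. In TD139-treated against naïve mice, Hmgcs1 went to 0.00 with library size alone, with only the 2 groups, without vehicle-treated mouse 1 and without TD139-treated mouse 2, to 0.01 without the filter, to 0.03 in run 2 only, to 0.05 without TD139-treated mouse 3 and to 0.09 without naïve mouse 2. The median of the 8 genes kept its sign, from -0.42 to -0.24 in vehicle-treated against naïve mice, from 0.06 to 0.22 in TD139-treated against vehicle-treated mice and from -0.29 to -0.05 in TD139-treated against naïve mice.

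The labels number the mice 1 to 3 in each group without saying what the numbers share, and the deviations of same-numbered mice correlated at -0.26 to 0.28, so the numbers were not taken as pairs. With 3 mice a group, 22 to 69 counts of Idi1 per mouse limit what can be said of it.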
